A study of Mus musculus with 6 samples.

Results

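The 53 genes described here are the Wnt ligands, their receptors and antagonists, and the pathway's immediate feedback genes, picked by symbol out of 49492 gene rows. They were measured by RNA sequencing in mouse soft palate at embryonic stage E14.5, in 3 control libraries labelled wild type and 3 libraries labelled Dlx5-/-, a genotype without the homeobox factor Dlx5. The posterior palate was dissected, so every library holds epithelium, mesenchyme, muscle precursors, nerve and vessels together, and fewer cells of a type cannot be told apart from less RNA per cell. The labels give no strain, no Cre line and no statement that each library came from a separate embryo or from a pool. The p-values therefore measure the spread between these libraries, which may in part be technical. The series concerns how neural crest mesenchyme and muscle precursors interact in the soft palate.

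Wnt ligands are secreted glycoproteins that bind Frizzled receptors together with the co-receptors Lrp5 and Lrp6. In the canonical branch this stops the destruction of beta-catenin, which then acts with the nuclear factors Lef1 and Tcf7, and genes such as Axin2, Nkd1 and Lgr5 are switched on as feedback. R-spondins raise receptor levels through Lgr4, Lgr5 and Lgr6, and the Sfrp, Dkk and Wif1 proteins block ligands or co-receptors outside the cell. In the palate, Wnt signals pass between epithelium and mesenchyme during shelf growth, and Wnt5a acts mainly in the mesenchyme through non-canonical receptors.

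Sequence before a RefSeq transcription start is shown for feedback genes with a higher estimate in the knockout, where the window holds no exon base of the gene. That condition leaves out the window of Dkk1, which has 2 matches to the letters below. Lgr5 had no window in the RefSeq table. Each stretch is the 250 bases before a RefSeq transcription start on GRCm38.p6, read 5′ to 3′ on the gene's plus strand. It lies at chr8:88527383-88527632 for Nkd1 (inside the wider gene span that GENCODE lists, downstream of its first base), chr3:131110047-131110296 for Lef1 (the most upstream of 4 starts in the table) and chr11:108920099-108920348 for Axin2. The letters searched on both strands were CTTTGAA, the variant CTTTGAT, the variant CTTTGTA and the variant CTTTGTT, bound by TCF and LEF factors, as well as TAATTA and the variant TAATTG, bound by many homeodomain proteins. Neither set was found in the 3 stretches shown, so no letter is in capitals.
Nkd1: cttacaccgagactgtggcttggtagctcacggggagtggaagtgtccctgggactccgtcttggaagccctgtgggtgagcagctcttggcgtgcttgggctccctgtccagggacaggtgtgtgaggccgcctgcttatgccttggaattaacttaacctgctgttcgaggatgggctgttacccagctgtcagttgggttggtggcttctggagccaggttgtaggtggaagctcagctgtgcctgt
Lef1: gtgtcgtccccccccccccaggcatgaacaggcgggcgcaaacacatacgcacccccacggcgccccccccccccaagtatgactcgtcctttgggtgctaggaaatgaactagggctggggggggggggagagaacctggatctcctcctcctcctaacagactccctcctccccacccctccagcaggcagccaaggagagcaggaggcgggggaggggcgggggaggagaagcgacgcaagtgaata
Axin2: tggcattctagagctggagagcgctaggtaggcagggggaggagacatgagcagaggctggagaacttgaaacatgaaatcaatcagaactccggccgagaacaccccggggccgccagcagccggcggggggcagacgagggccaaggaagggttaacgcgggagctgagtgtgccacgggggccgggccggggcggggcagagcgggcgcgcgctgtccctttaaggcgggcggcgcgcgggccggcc
Of the 53 genes, 35 had a window in the RefSeq table. Only the most upstream window of each was searched, while the shares over all windows count every start of a gene. The TCF and LEF letters occurred in 3 of these 35 (8.57%), among them Dkk1 with 2 matches, against 14.8% of all 32851 windows of 250 bases. The homeodomain letters occurred in 1 of 35 (2.86%), against 11.3% of all windows. These counts describe the letters in these windows only.

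The libraries held between 6891798 and 11922442 estimated counts. Dlx5 measured 19.3 ± 5.88 CPM (counts scaled to a common library size, TMM) in controls and 1.25 ± 0.402 CPM in knockouts (SD, n = 3 each), so all 6 libraries matched their labels. It was the single gene of 16218 tested to pass an adjusted p of 0.05, which is 0.00617% of them; without knockout replicate 3 there were 164. Markers of palatal mesenchyme were present, with none of 11 at 0 throughout a group; at an unadjusted p under 0.05, a basis on which 12.8% of all genes counted, Osr1, Prrx1, Twist1 and Pdgfra (4 of 11) were higher and Pax9 (1 of 11) lower. Knockout replicate 3 stood apart: its mean correlation with the other libraries was 0.959, against 0.970 to 0.976. It held brain and neural tube transcripts, with a summed level of 313.6 CPM over 14 markers against 21.1 to 56.0 CPM in the other libraries. In the same comparison 9 of 11 muscle markers had higher estimates and 9 of 11 neuron markers lower ones at an unadjusted p under 0.05.

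No Wnt gene passed the adjusted threshold. Of the 53 genes, 45 had a mean of at least 1 CPM and were tested. Of these, 0 passed at an adjusted p of 0.05 with edgeR's quasi-likelihood test or with limma-trend (which called 0.598% of all genes), while DESeq2 called 5 (3 higher, 2 lower; 3.43% of the genes it adjusted were called). At an unadjusted p under 0.05 there were 9 (6 higher, 3 lower), or 20%, against 12.8% of all genes tested (5.61% higher and 7.23% lower). Control and knockout values did not overlap for 11 of the 45 (7 higher, 4 lower), where 9.48% of all genes were higher and 9.71% lower in this way. The median log2 fold change, knockout over control, was 0.066 over the 45 genes and 0.014 over all genes; it ran from 0.021 (without control replicate 2) to 0.13 (without knockout replicate 1) with a library left out. Without knockout replicate 3 there were 10 genes at an unadjusted p under 0.05, including all 9, against 13.5% of all genes. Without knockout replicate 2 there were 14, against 13.5% of all genes.

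**Figure D1:**
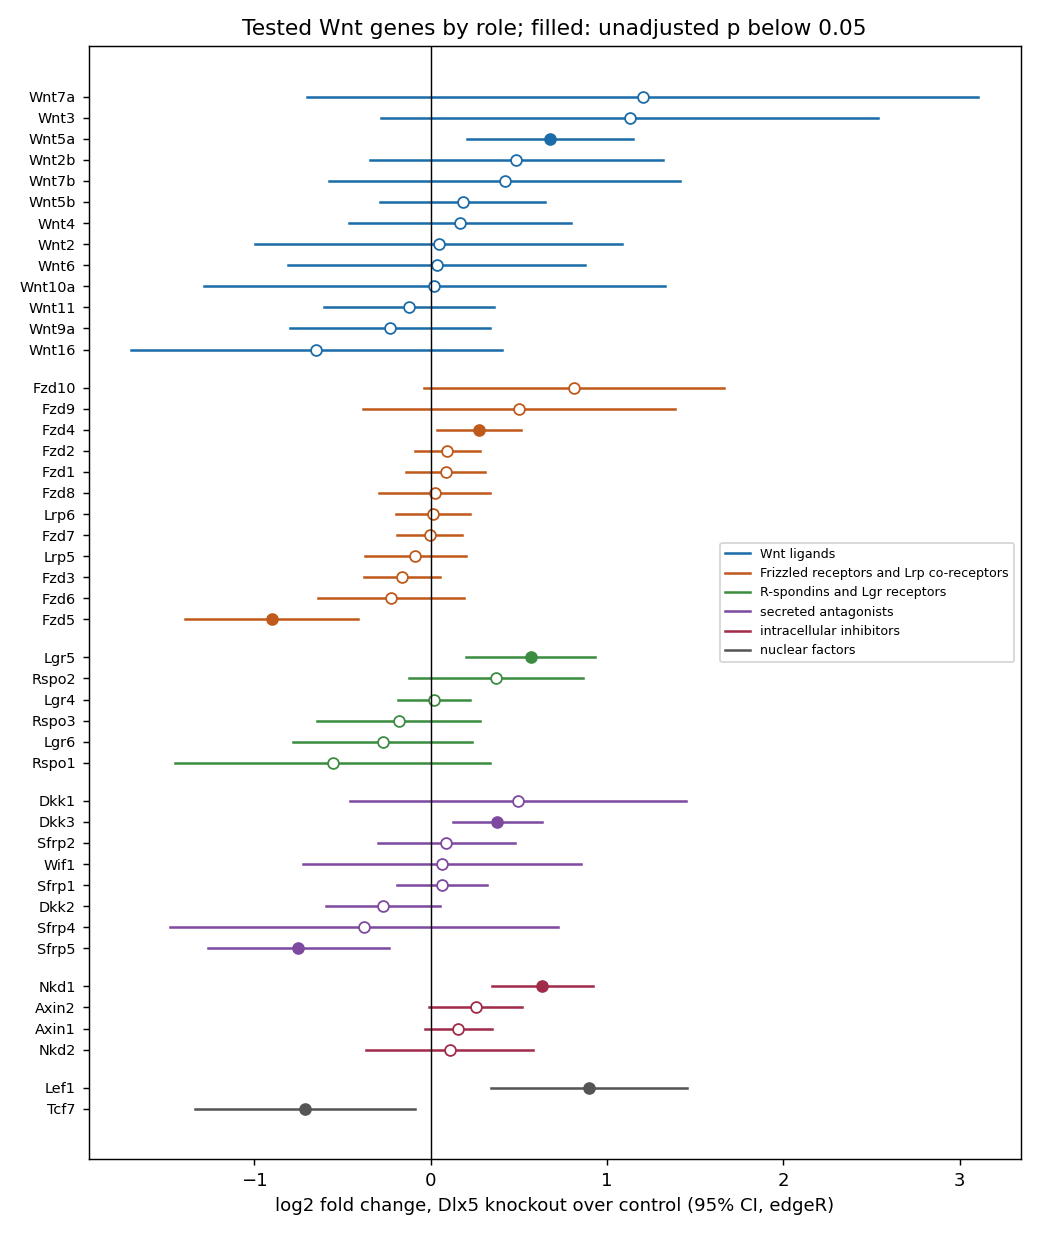
Log2 fold change, Dlx5 knockout over control, of the 45 tested Wnt genes grouped by role, with 95% confidence intervals from edgeR; filled points have an unadjusted p below 0.05. The 9 filled points are spread over all 6 roles, with 6 above 0 and 3 below.

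Wnt5a was the ligand with the highest level per length. It measured 4.83 ± 0.682 CPM per kilobase of exon in controls and 7.67 ± 2.34 in knockouts (SD, n = 3 each). Its libraries measured 42.9, 32.2 and 38.4 CPM in control replicates 1 to 3 and 48.0, 51.0 and 81.1 CPM in knockout replicates 1 to 3. The groups did not overlap, and knockout replicate 3 was well above the others. The log2 fold change of Wnt5a was 0.68 (standard error 0.21; 95% confidence interval 0.20 to 1.15; edgeR adjusted p = 0.211), and without knockout replicate 3 it was 0.39 (adjusted p = 0.208). DESeq2 called it (adjusted p = 0.0401). The 11 palatal mesenchyme markers summed to 3309 to 3866 CPM in controls and 2004 to 4055 CPM in knockouts. Col1a1 was the largest part of these sums, with 2807, 2635 and 3064 CPM in controls and 1778, 3222 and 1072 CPM in knockouts. At an unadjusted p under 0.05, 4 of the 11 were higher and 1 lower, against 12.8% of all genes, and Col1a1 was neither. The part of these markers in the values of Wnt5a, Lef1 and Ror1 was not tested. Wnt5a lies on chromosome 14 from 28504750 to 28527448, plus strand (GRCm38).

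Of the 12 other tested ligands none had an unadjusted p under 0.05. In controls Wnt5b, Wnt4, Wnt11, Wnt6 and Wnt9a followed Wnt5a at 2.42 to 3.29 CPM per kilobase, and these neighbours did not differ beyond their spread. Wnt4 averaged 12.2 ± 4.32 CPM in controls and 13.6 ± 2.33 CPM in knockouts. Wnt11, which acts on cell movement, measured 11.2 ± 1.49 and 10.3 ± 2.28 CPM (SD, n = 3 each). Their confidence intervals were wide: for none of the 13 ligands did the interval lie within a log2 fold change of 0.5 in either direction. For every ligand a rise or a fall of that size thus stayed within the interval, and none was shown. Some intervals reached a change of 0.5 on a single side. That of Wnt11 ran from -0.61 to 0.36, short of a rise of 0.5. That of Wnt5b ran from -0.28 to 0.65, short of a fall of 0.5. Neither interval excluded a smaller rise or fall.

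Among the ligands, 7 of 13 had their highest value in knockout replicate 3, against 21.9% of all genes tested. Wnt7b measured 6.99, 7.50 and 13.9 CPM in knockout replicates 1 to 3 and 7.56, 3.33 and 10.9 CPM in control replicates 1 to 3. Wnt3 reached 51 counts in knockout replicate 3, after 20 and 7 in knockout replicates 1 and 2, and 6, 13 and 11 among controls. Wnt7a had 14, 3 and 45 counts against 14, 4 and 4. It is among these 7 but passed the filter on low values only through the knockouts, so its place in that count rests on the same values. Their groups overlapped, and the highest value came from 1 library. These low ligands, Fzd10, Sp5 and Kremen2 are given by library because of that high value in knockout replicate 3, seen in the data. The receptor gene Fzd10 had a similar shape, with 82, 47 and 187 counts for knockouts against 43, 59 and 51 for controls. The summed level of the 19 ligands was 34.7 CPM per kilobase in knockout replicate 3 and 22.0 to 26.3 in the other libraries. The summed brain and neural tube markers were highest in that library too, led by Slc1a2 (150.0 CPM against 7.14 to 20.8 elsewhere), Gad1 (52.7 against at most 2.49) and Gfap (40.4 against at most 2.37). Of the 14 markers, 9 were highest there, while Pax6, En1, En2, Dbx1 and Olig2 were not, and Pax6 was lowest there. Of these 14 markers, 4 had higher estimates at an unadjusted p under 0.05, 0 had lower ones and none was at 0 in all libraries of a group. Their part in the ligand values was not tested.

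The remaining 6 ligands were too low to test. Wnt10b had 24 counts over the controls and 24 over the knockouts, and Wnt8b had 13 and 3. Wnt9b, a ligand of facial ectoderm, had 2, 0 and 0 counts among controls against 4, 1 and 14 among knockouts. Wnt1, Wnt3a and Wnt8a had at most 6 counts in either group. A floor of 3 counts was set, which corresponded to 0.226 to 0.431 CPM in these libraries. Levels below it rested on fewer counts than that, and no difference was read from them.

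**Figure D2:**
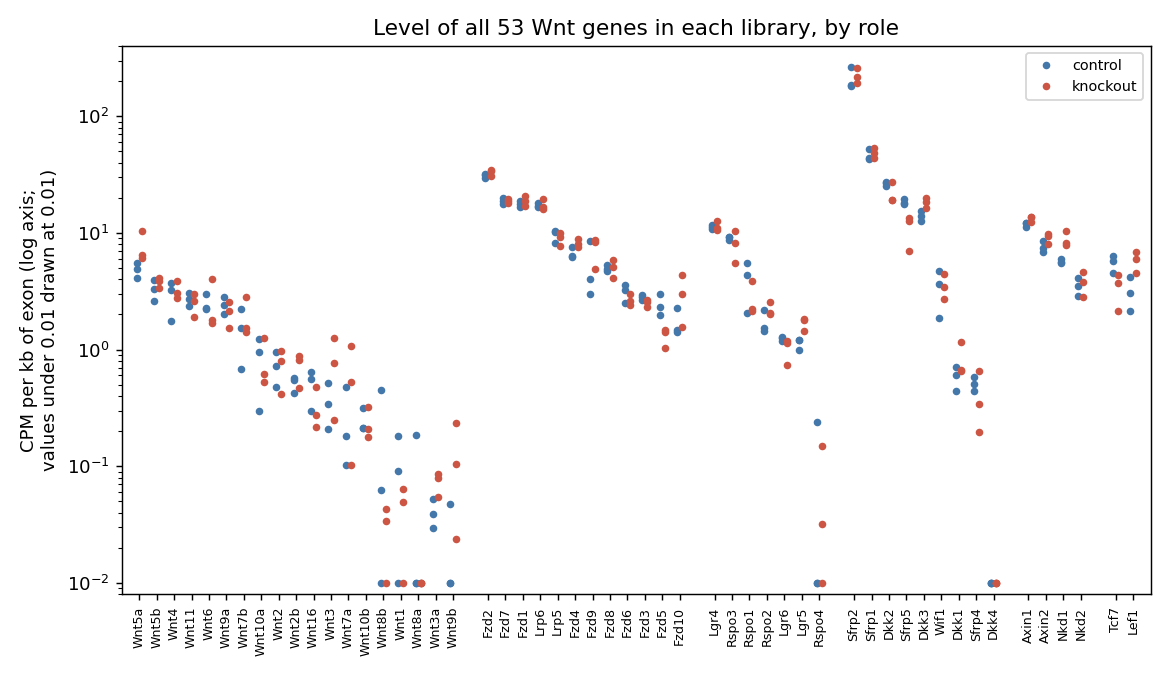
Level of each of the 53 Wnt genes in each of the 6 libraries, in CPM per kilobase of exon on a log axis, ordered within each role by the control mean; blue points are control and red points knockout libraries. Sfrp2 is the most abundant, and Wnt5a, with means of 4.83 and 7.67 CPM per kilobase, leads the ligands; values under 0.01 are drawn at 0.01.

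The 12 Frizzled and Lrp genes summed to 121 ± 6.59 CPM per kilobase in controls and 127 ± 3.21 in knockouts (SD, n = 3 each). Fzd2 was the highest, with 31.0 ± 1.33 and 33.1 ± 2.04 CPM per kilobase. In single libraries Fzd2 measured 117, 108 and 116 CPM in controls and 127, 113 and 123 CPM in knockouts, so the groups overlapped. Fzd7, Fzd1 and the co-receptor Lrp6 followed at 17.2 to 18.8 CPM per kilobase in controls and did not differ from each other beyond their spread. For 7 of the 12 genes the 95% interval lay within a log2 fold change of 0.5 in either direction. For Lrp6 it ran from -0.20 to 0.22 and for Fzd7 from -0.19 to 0.18.

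Fzd5 was lower in all knockout libraries. This Frizzled receptor, known from eye and gut development, measured 16.0, 13.8 and 20.7 CPM in control replicates 1 to 3 and 9.71, 10.2 and 7.09 CPM in knockout replicates 1 to 3. The groups did not overlap. Its log2 fold change was -0.90 (standard error 0.21; 95% confidence interval -1.39 to -0.41; edgeR adjusted p = 0.125), and DESeq2 called it (adjusted p = 0.0175). It lies on chromosome 1 from 64730558 to 64737751, minus strand. Fzd4, a receptor for Wnts and for Norrin that acts in vessels, had the opposite direction at a smaller size. Its values were 50.7, 41.9 and 42.8 CPM in controls and 50.9, 59.0 and 53.8 CPM in knockouts, with the closest libraries nearly equal. For Fzd4 the log2 fold change was 0.27 (standard error 0.10; edgeR adjusted p = 0.314). It lies on chromosome 7 from 89404355 to 89413134.

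Among R-spondins and their receptors, Lgr4 was the highest (11.2 ± 0.386 CPM per kilobase in controls, 11.4 ± 1.01 in knockouts). Its libraries measured 63.9, 65.8 and 68.4 CPM in controls and 64.4, 73.7 and 62.6 CPM in knockouts, with overlapping groups and a 95% interval of -0.18 to 0.22. Lgr5, which is itself a beta-catenin target, measured 12.4, 10.2 and 12.5 CPM in controls and 14.8, 18.4 and 18.7 CPM in knockouts. All knockout libraries lay above the controls. For Lgr5 the log2 fold change was 0.57 (standard error 0.16; 95% confidence interval 0.20 to 0.93; edgeR adjusted p = 0.173). It lies on chromosome 10 from 115450311 to 115587780. Lgr6 measured 8.74, 8.60 and 8.19 CPM in controls and 5.09, 8.15 and 7.85 CPM in knockouts; the groups did not overlap, but by a margin smaller than the spread within the knockouts, and the log2 fold change was -0.27 (standard error 0.22; edgeR adjusted p = 0.668). Without knockout replicate 1 it was -0.092. The ligands Rspo1, Rspo2 and Rspo3 had overlapping groups, and Rspo4 had 7 counts in controls and 4 in knockouts, under the filter.

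Secreted antagonists were the most abundant role. Sfrp2, which binds Wnt ligands in mesenchyme, measured 211 ± 48.1 CPM per kilobase in controls and 224 ± 34.0 in knockouts (SD, n = 3 each), or 65.2% ± 4.86 and 68.0% ± 2.07 of the summed level of the 9 antagonists. Its libraries measured 399, 388 and 573 CPM in controls and 470, 561 and 416 CPM in knockouts, with overlapping groups. Sfrp1 followed at 46.6 ± 5.32 and 48.8 ± 4.97 CPM per kilobase.

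Sfrp5, of the same family, was lower in all knockout libraries, at 34.1, 37.2 and 33.5 CPM in controls against 25.7, 24.1 and 13.2 CPM in knockouts. Its log2 fold change was -0.75 (standard error 0.22; 95% confidence interval -1.26 to -0.24; edgeR adjusted p = 0.202). DESeq2 called it (adjusted p = 0.0436), and without knockout replicate 3 the log2 fold change was -0.49 (adjusted p = 0.0826, edgeR). Sfrp5 lies on chromosome 19 from 42197971 to 42202252, minus strand. Dkk3, a divergent Dickkopf protein, measured 47.1, 42.3 and 52.0 CPM in controls and 62.1, 66.9 and 54.5 CPM in knockouts, without overlap. Its log2 fold change was 0.38 (standard error 0.11; 95% confidence interval 0.12 to 0.63; edgeR adjusted p = 0.193). Dkk3 lies on chromosome 7 from 112116017 to 112159057. The Lrp inhibitor Dkk2, the third most abundant antagonist, averaged 97.8 ± 4.48 CPM in controls and 81.3 ± 17.6 CPM in knockouts, with overlapping groups. Dkk4 had 0 counts in all 6 libraries.

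Marker levels of pituitary and oral epithelium are given beside these lower estimates. The 8 pituitary markers summed to 138 to 237 CPM in controls and 42.6 to 95.3 CPM in knockouts, with 6 of 7 tested markers lower at an unadjusted p under 0.05. Hesx1 was too low to test, with 3, 5 and 0 counts in controls and 0 in all knockouts. The 15 oral epithelium markers summed to 326 to 534 CPM in controls and 291 to 356 CPM in knockouts, with 3 of 15 lower on that basis (Krt14, Krt17 and Cdh1; 7.23% of all genes were lower), 0 higher and none at 0 throughout a group. Those 2 ranges overlap, and 4 of the 15 had estimates above 0. Their part in the values of Fzd5, Sfrp5 and Tcf7 was not tested.

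**Figure D3:**
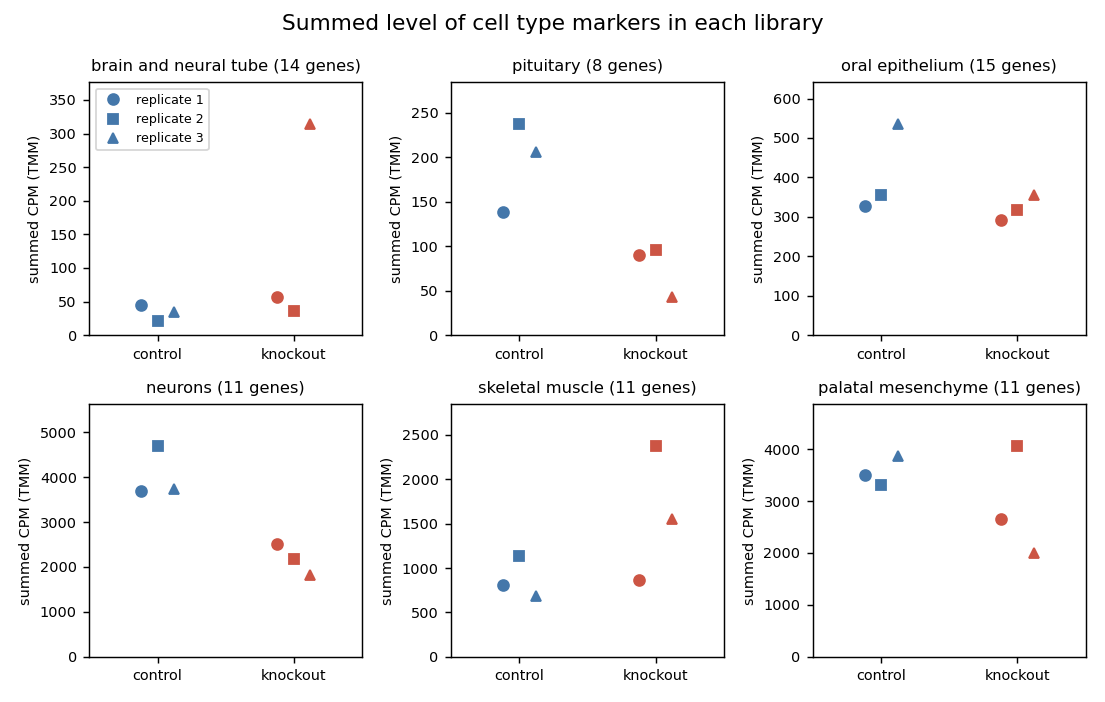
Summed CPM of cell type markers in each library, by group, with symbols for the replicates. Brain and neural tube markers are high in knockout replicate 3, and pituitary and neuron sums in the knockouts lie below all controls.

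Nkd1 had the smallest p-value of the 45 genes. This feedback inhibitor binds Dishevelled inside the cell. It measured 27.0, 25.2 and 25.4 CPM in control replicates 1 to 3 and 47.6, 37.3 and 35.7 CPM in knockout replicates 1 to 3. The controls were nearly equal and all knockouts lay above them. Its log2 fold change was 0.63 (SE 0.13; 95% confidence interval 0.35 to 0.92), with an adjusted p of 0.0799 from edgeR, under 0.1 as were 1.84% of all genes. Without knockout replicate 3 it was 0.71 and passed (adjusted p = 0.0383, edgeR), as it did with DESeq2 (adjusted p = 0.00823). Over libraries left out it ran from 0.50 to 0.71. Nkd1 lies on chromosome 8 from 88521354 to 88594884, plus strand. Its paralog Nkd2 averaged 16.8 ± 3.01 CPM in controls and 18.0 ± 4.27 CPM in knockouts (SD, n = 3 each), with overlapping groups.

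Axin1 and Axin2 are scaffolds of the complex that destroys beta-catenin, and Axin2 is a common readout of the canonical branch. Axin2 measured 37.5, 41.2 and 46.9 CPM in controls and 51.5, 43.8 and 54.1 CPM in knockouts, so control replicate 3 lay above knockout replicate 2. Its log2 fold change was 0.26 (standard error 0.12; 95% confidence interval -0.0096 to 0.52; edgeR adjusted p = 0.408). Axin1, the most abundant of the 4 intracellular inhibitors, measured 46.5, 46.8 and 43.3 CPM in controls and 52.6, 52.8 and 47.3 CPM in knockouts. The groups did not overlap, and the difference was small (log2 fold change 0.16, standard error 0.08; edgeR adjusted p = 0.480).

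The nuclear partners of beta-catenin had opposite directions. Lef1 measured 36.9, 18.7 and 26.7 CPM in control replicates 1 to 3 and 52.8, 39.8 and 59.9 CPM in knockout replicates 1 to 3. Tcf7 measured 15.1, 11.9 and 16.5 CPM in controls and 9.71, 11.4 and 5.58 CPM in knockouts. Neither gene's groups overlapped, though for Tcf7 control replicate 2 and knockout replicate 2 were close. Fitted log2 fold changes were 0.90 for Lef1 (standard error 0.24; 95% confidence interval 0.34 to 1.46; edgeR adjusted p = 0.158) and -0.71 for Tcf7 (standard error 0.27; 95% confidence interval -1.33 to -0.086; edgeR adjusted p = 0.321). DESeq2 called Lef1 (adjusted p = 0.00816) but not Tcf7 (adjusted p = 0.244).

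Per length, Tcf7 was above Lef1 in every control (ratio of Lef1 to Tcf7 of 0.730, 0.471 and 0.483) and below it in every knockout (1.62, 1.04 and 3.21). The lengths count all annotated exon bases of a gene (8788 for Lef1, 2625 for Tcf7), and the order of the 2 genes depends on them. In CPM, Lef1 was above Tcf7 in every library. That the ratio was higher in every knockout than in every control does not depend on the lengths. This ratio was examined because both genes form 1 role, with their directions known, and it was not tested. Without knockout replicate 3 the log2 fold change was 0.76 for Lef1 and -0.45 for Tcf7. Lef1 lies on chromosome 3 from 131110471 to 131224356 and Tcf7 on chromosome 11 from 52252371 to 52283014. Lef1 shares 1208 exon bases with the antisense gene Gm43352, which had 38 counts over the controls and 59 over the knockouts. Wnt5a shares 358 bases with antisense Gm2670 (14 and 34 counts). The use of strand is not given in the sources used here, so reads of such pairs may not have been told apart.

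**Figure D4:**
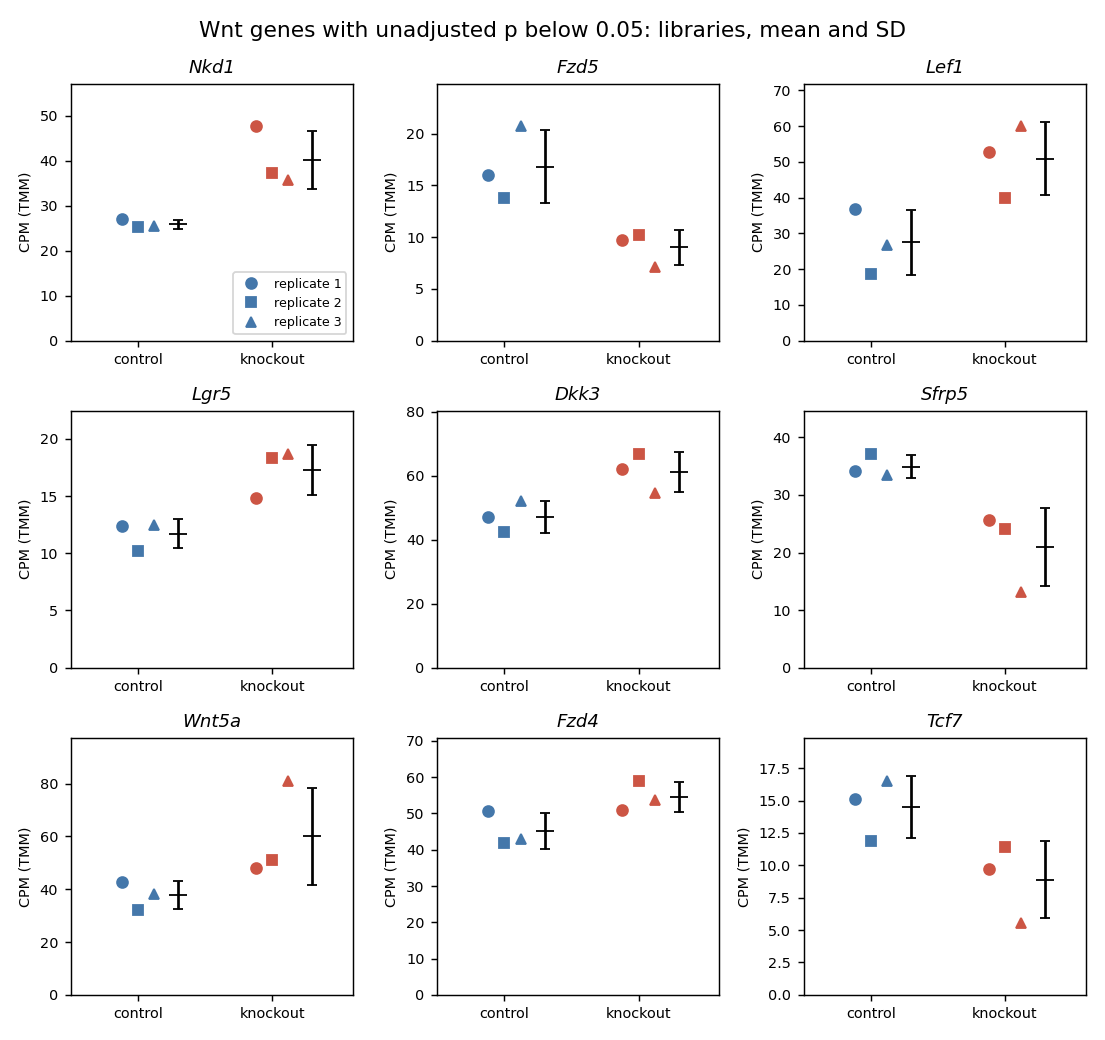
CPM of the 9 Wnt genes with an unadjusted p below 0.05 in each library, ordered by p, with symbols for the replicates and bars for mean and SD beside each group. In each panel the control and knockout points do not overlap, and 6 of the 9 (Wnt5a, Lef1, Lgr5, Fzd5, Sfrp5 and Tcf7) have the knockout value farthest from the controls in replicate 3.

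Of the 6 genes of this set that are known feedback targets of beta-catenin (Axin2, Nkd1, Lef1, Tcf7, Dkk1 and Lgr5), 3 were higher and 1 lower at an unadjusted p under 0.05, against 12.8% of all genes. Their median log2 fold change was 0.53, against 0.014 over all genes. Summed, the 6 genes measured 130, 109 and 130 CPM in controls and 179, 152 and 176 CPM in knockouts, without overlap. Dkk1, an Lrp inhibitor, was low, with 10, 18 and 12 counts among controls against 24, 15 and 21 among knockouts (log2 fold change 0.50, standard error 0.42; edgeR adjusted p = 0.674), and its log2 fold change was 0.18 without knockout replicate 1. The subset was written with earlier results of these data known and was not tested as a set.

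Other genes of the pathway were counted in the same way. Over 3 lists, 64 of 65 genes were tested, and 13 (8 higher, 5 lower; 20.3%) had an unadjusted p under 0.05, against 12.8% of all genes, with a median log2 fold change of 0.073; 0 passed after adjustment with edgeR. This count fell to 4 without control replicate 2 (8.82% of all genes) and to 8 (2 higher, 6 lower) without knockout replicate 3 (13.5% of all genes).

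In the beta-catenin branch, 5 of 31 were higher and 4 lower on that basis, against 5.61% and 7.23% of all genes. The 4 lower ones included the scaffold gene Apc (270 ± 24.8 CPM in controls, 231 ± 8.25 in knockouts) and the kinase gene Gsk3b (210 ± 5.34 and 178 ± 9.34 CPM). Both are parts of the destruction machinery, whose other genes were mixed in direction. Btrc was also among the 4 lower ones (log2 fold change -0.20, standard error 0.08). Axin1 and Axin2 had estimates of 0.16 and 0.26, neither at an unadjusted p under 0.05. Over the 31 genes 23 estimates were above 0 and 8 below. Among the 5 higher were the beta-catenin cofactor gene Bcl9 (log2 fold change 0.22, standard error 0.08) and the nuclear factor gene Tcf7l1 (69.0 ± 3.31 and 79.3 ± 4.64 CPM). The target genes Ccnd1 (140 ± 25.6 and 181 ± 7.39 CPM) and Sp5 (1.52 ± 0.268 and 3.57 ± 1.83 CPM) were also among them. Sp5 had 15, 15 and 12 counts among controls against 35, 14 and 67 among knockouts, with overlapping groups.

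In the non-canonical and planar polarity branch, 2 of 18 were higher and 0 lower (11.1%, against 12.8% of all genes). Both were Wnt5a receptors. The other 16, further receptor genes among them, had no unadjusted p under 0.05, and over the 18 genes 9 estimates were above 0 and 9 below. Ror1 measured 29.5, 27.6 and 31.6 CPM in controls and 38.8, 42.4 and 43.6 CPM in knockouts, without overlap. Its log2 fold change was 0.50 (standard error 0.09, edgeR adjusted p = 0.0731). Ror2 measured 33.0 ± 2.72 and 40.1 ± 2.73 CPM (log2 fold change 0.28, standard error 0.10; edgeR adjusted p = 0.276). Among 15 tested secretion and extracellular regulators 1 was higher and 1 lower (13.3%, against 12.8% of all genes). The lower was the axon guidance gene Draxin (27.6 ± 4.21 and 16.9 ± 2.66 CPM). The higher was the Dkk receptor gene Kremen2, with 1.73, 2.44 and 0.288 CPM in controls and 4.38, 2.61 and 7.54 CPM in knockouts, without overlap. Its counts were low, with 2 in control replicate 3 and 100 in knockout replicate 3.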

How the data were processed

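Per the submitters' processing notes, the authors used STAR 2.4.1d, Partek and the mouse build mm10; how reads were counted, with which annotation and strand setting, is not stated there. Per the labels' protocols, libraries came from an Illumina TruSeq mRNA kit. The deposited table holds estimated counts, although it describes itself as normalized: column totals differ and 64.5% of values above 0.5 are whole within 0.001. Of 7 value columns, 1 has a name that fits no labelled sample and was left out.

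Estimated counts were rounded. Genes with a mean of at least 1 CPM were tested in R 4.3.3 by the quasi-likelihood method of edgeR 4.0.16, with TMM scaling and Benjamini-Hochberg adjustment over 16218 genes, threshold 0.05. CPM values use the same factors. Standard errors come from the F statistic. GENCODE M21 (GRCm38, equal to mm10) gave lengths and coordinates. The test was tried on simulated counts. Values by library are given for genes with an unadjusted p under 0.05, groups that do not overlap, or the highest level per length in a role. At most 10 other pathway genes are named, by p, and Btrc was named in addition, beside Apc and Gsk3b. The members, lists and rule were chosen with earlier results of these data known. Alternatives used limma 3.58.1 on log2(CPM + 1), DESeq2 1.42.0, other scalings and filters, a replicate block and libraries left out. A fit without 6 ribosomal RNA rows was added after seeing the data. Figures were drawn with matplotlib 3.10.9.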

Additional observations from a re-analysis of the deposited data

How the results depend on the processing

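The 9 Wnt genes with an unadjusted p under 0.05 kept their direction under all 14 alternatives that refitted the test, and 7 to 9 of them kept that p. Counts past the adjusted threshold depended on the method. Over all genes the count was 1 in the main test, 41 with library totals in place of TMM, 699 without a filter, 74 with a filter of 5 CPM, 501 with DESeq2, 97 with limma-trend, 299 at an adjusted p under 0.1, and 0 to 164 with a library left out. Among Wnt genes it was 0 in the main test, 5 without a filter and 5 with DESeq2 (Nkd1, Lef1, Fzd5, Sfrp5 and Wnt5a in both), 1 at an adjusted p under 0.1, and 0 to 1 with a library left out. Wnt genes at an unadjusted p under 0.05 numbered 9 in the main test, 14 (of 52 tested) without a filter, and 8 to 14 with a library left out, the most without knockout replicate 2. Of all genes tested, 12.8% counted on that basis in the main test, 9.77% without a filter, and 8.82% to 13.5% with a library left out. Other pathway genes on that basis numbered 13, then 5 with library totals, 8 with DESeq2, and 4 to 10 with a library left out. The cause of these shifts was not tested. The Wnt median of 0.066 was 0.062 with a filter of 5 CPM, 0.061 with DESeq2, 0.081 with limma-trend, and 0.021 to 0.13 with a library left out. The log2 fold change of Lgr4 crossed 0 with library totals (-0.00074) and ran from -0.066 to 0.063 with a library left out, and that of Sfrp2 ran from -0.044 to 0.29. With the replicate number as a replicate block, 0 of all genes and 0 Wnt genes passed, 9 Wnt and 7 other pathway genes had an unadjusted p under 0.05, and the Wnt median was 0.083. Same-numbered libraries did not deviate together (correlations -0.01, -0.01 and 0.02), so the numbers were not taken as pairs. The 8 untested Wnt genes had a mean under 1 CPM.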
